A study of Homo sapiens with 6 samples.

Results

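The immediate early response genes described here were 10 of the 39641 genes matched by a probe, FOS, FOSB, FOSL1, JUN, JUNB, ATF3, EGR1, KLF6, DUSP1 and IER3, taken by name and followed through every probe that the arrays carried for them. Of 125601 probes that are not controls, 17 matched a transcript of these genes in sense without mismatch, and 4 of the genes had more than 1 such probe. The data came from 6 single-color Agilent arrays of SKOV3, an established human ovarian cancer cell line. The sample descriptions name SKOV-3, whereas all 6 array titles read SKOV-1 and the growth protocol SKOV-13, and SKOV3 is used here. On 3 arrays the label gave 1α,25(OH)2D3, the hormonally active form of vitamin D, at 100 nmol/L for 72 h, and on 3 it gave vehicle, which was ethanol at the same concentration for the same time. All 6 arrays shared the cell line and the duration, and nothing in the labels says that they came from separate cultures, so the p-values below measure the spread between these samples, which may be technical. Values are log2 values of the authors' normalized table and are given in the order of replicates 1, 2 and 3 of each label. A probe's value can be compared between arrays. Levels of different probes were used together only to pick the brightest probe of a gene and to sum marker lists, and no gene was ranked by level against another.

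Immediate early response genes are transcribed within minutes of a growth factor, stress or hormone signal, from promoters that are already poised, and need no new protein to be made first. Kinases of the MAPK family phosphorylate factors such as SRF partners and JUN that sit on these promoters. The products of these genes are mostly transcription factors of the AP-1, EGR and KLF families together with inhibitors that switch the signal off again. The transcripts are short-lived, so their level follows the signals that act on the cells when the RNA is taken. AP-1 is a dimer of a FOS and a JUN family protein, and in epithelial tumor cells it drives genes of proliferation, migration and invasion.

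CYP24A1, the gene of the enzyme that breaks down active vitamin D and the classical target of the vitamin D receptor, was the check of the labels. Its 3′ UTR probe had values of 2.23, 13.84 and 3.30 on the 1α,25(OH)2D3-labelled arrays and 14.18, 4.75 and 14.34 on those labelled vehicle. It was well above background on 3 arrays only, 1α,25(OH)2D3 replicate 2 and vehicle replicates 1 and 3, so that a low signal stands on 2 arrays labelled as treated and a high one on 2 labelled as vehicle. Directions below are therefore between libraries as labelled. A coding probe of CYP24A1 had 3.88, 14.64 and 4.46 against 15.16, 8.24 and 15.25, and was above background on vehicle replicate 2 as well. Another CYP24A1 probe, in an exon without a defined coding sequence, had 2.14, 9.99 and 2.15 against 10.32, 2.21 and 10.23. It was above background on the same 3 arrays as the 3′ UTR probe. Every order or division by CYP24A1 below uses the 3′ UTR probe. The coding probe gave the same order of arrays, and the other probe differed only in that vehicle replicates 1 and 3 changed places. The division by detection depends on the choice, since the coding probe would add vehicle replicate 2 to the 3 arrays. One slide held 1α,25(OH)2D3 replicates 1 and 2, and a second slide the other 4 arrays. An array detected 49.1% to 57.5% of its probes above background, without a saturated spot. The probes of all 6 epithelial and ovarian carcinoma marker genes that could be matched (KRT7, KRT8, KRT19, EPCAM, ERBB2 and PAX8) were above background on every array, whereas none of the 4 matched fibroblast markers was. Their summed level was 7.76 to 8.70 on the 1α,25(OH)2D3-labelled arrays and 5.33 to 7.98 on those labelled vehicle. DCN was above background on no array and LUM on 1, and neither was tested. The collagen gene COL1A1, detected on 3 arrays and not tested, had 3.52, 5.03 and 2.98 against 4.61, 2.09 and 5.59. COL1A2, a collagen gene detected on 5 arrays, had 8.53, 7.33 and 8.34 against 7.71, 4.56 and 7.13 (log2 fold change 1.60, SE 0.765, unadjusted p = 0.0722 in limma). The summed level therefore rests mostly on COL1A2. All 4 leukocyte and all 3 endothelial marker probes were also above background on every array, with summed levels of 9.56 to 9.83 and 8.96 to 9.11 on the 1α,25(OH)2D3-labelled arrays and of 9.55 to 9.67 and 9.05 to 9.39 on those labelled vehicle, and their part in the results was not tested.

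The probes decide which transcripts of a gene were seen. Of the 17 probes, 13 lie in a 3′ UTR, 1 in a 5′ UTR and 3 in coding sequence, and the last are shown because the 4 ATF3 probes gave different sizes of difference. JUNB probe A_24_P241815 lies in the single exon of JUNB at chr19:12792184-12792243 (hg38, plus strand), ATF3 probe A_33_P3214105 in exon 2 of ATF3 at chr1:212615160-212615219, and ATF3 probe A_24_P33895 in exon 4 of ATF3 at chr1:212619495-212619554, both on the plus strand.
JUNB A_24_P241815: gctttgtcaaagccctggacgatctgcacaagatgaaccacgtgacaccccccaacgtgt
ATF3 A_33_P3214105: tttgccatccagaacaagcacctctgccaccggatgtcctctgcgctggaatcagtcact
ATF3 A_24_P33895: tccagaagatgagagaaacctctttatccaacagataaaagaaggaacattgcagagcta

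The promoters of these genes were searched for elements through which early response genes are known to be switched on. Elements farther than 250 bases before the start were not searched. RefSeq promoters of GRCh38.p14 (250 bases before to 50 after the start of the gene) were found for 8 of the 10 members. Of these, 4 are shown from 150 bases before the start to the last base before it, with only the elements named for each in capitals. FOS is shown at chr14:75278678-75278827 (plus strand), with TGACG, the first bases of the cyclic AMP response element, and TATAAA in capitals. EGR1 is shown at chr5:138465329-138465478 (plus strand), with 2 CArG boxes, the binding element of SRF, in capitals. JUN is shown at chr1:58784048-58784197 (minus strand), with TGACATCA, the AP-1-like element to which JUN dimers bind, in capitals. DUSP1 is shown at chr5:172771196-172771345 (minus strand), with the full cyclic AMP response element TGACGTCA and TATAAA in capitals. EGR1, JUN and DUSP1 also hold TGACG in the bases shown, in lower case except within TGACGTCA. In EGR1, and in DUSP1 outside TGACGTCA, it reads CGTCA, from the opposite strand.
FOS: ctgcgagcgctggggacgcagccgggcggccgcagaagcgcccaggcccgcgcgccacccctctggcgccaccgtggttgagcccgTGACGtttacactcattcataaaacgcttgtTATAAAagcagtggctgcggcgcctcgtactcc
EGR1: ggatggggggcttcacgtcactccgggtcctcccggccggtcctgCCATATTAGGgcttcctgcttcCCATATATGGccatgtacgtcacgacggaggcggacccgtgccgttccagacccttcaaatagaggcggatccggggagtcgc
JUN: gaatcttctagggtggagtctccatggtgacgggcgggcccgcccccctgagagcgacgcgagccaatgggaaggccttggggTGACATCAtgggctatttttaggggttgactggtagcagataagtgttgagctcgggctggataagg
DUSP1: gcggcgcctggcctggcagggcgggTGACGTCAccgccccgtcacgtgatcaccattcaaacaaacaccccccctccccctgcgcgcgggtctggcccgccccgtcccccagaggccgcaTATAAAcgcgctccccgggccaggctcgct
Each motif was searched on both strands of 35116 promoters of 300 bases. The CArG box was held by 1.29% of them and among the members by EGR1, where the boxes begin 105 and 83 bases before the start. TGACGTCA was held by 1.85% and among the members by DUSP1, 125 bases before the start, and every TGACGTCA also counts as a TGACG. TGACATCA was held by 2.61% and by JUN, ATF3 and KLF6, in JUN 67 bases before the start. TGACG was held by 24.6% of promoters and by 6 members, and TATAAA by 11.5% and by 5 members. No member promoter in the table held TGACTCA, which 4.95% of promoters held, or the vitamin D response element of the direct repeat type, which 0.251% held.

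None of the 10 genes passed the test between the labels once p-values were adjusted over all probes. Of the 17 probes, 15 passed the background filter (well above background on all 3 arrays of a label) and were tested with limma, and the remaining 2, both of FOSB, did not pass it. FOS was the only member with both a fold above 2 and an unadjusted p below 0.05, being lower with the 1α,25(OH)2D3 label, so 1 of 15 member probes was called where 0.745% of all 63337 tested probes were (0.486% higher and 0.259% lower with that label). At an adjusted p under 0.05 (limma, Benjamini-Hochberg) 0 member probes and 0 of all probes were called (0%), while 1 member probe and 6.77% of all probes had an unadjusted p under 0.05, and an unpaired test on each probe without limma's moderation called 0 members by either rule. The log2 difference was above 0 for 10 of the 15 member probes and below 0 for 5, with a median of 0.08 beside 0.00 for all tested probes. Several of these probes share a gene. With the brightest probe of each of the 9 tested genes, 4 were above 0 and 5 below, with a median of -0.03. The values of the 2 labels overlapped in all 15 probes, where they did not overlap in 12.2% of all tested probes. In arrays of bulk RNA, fewer cells with a transcript and less of it per cell cannot be told apart.

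**Figure D1:**
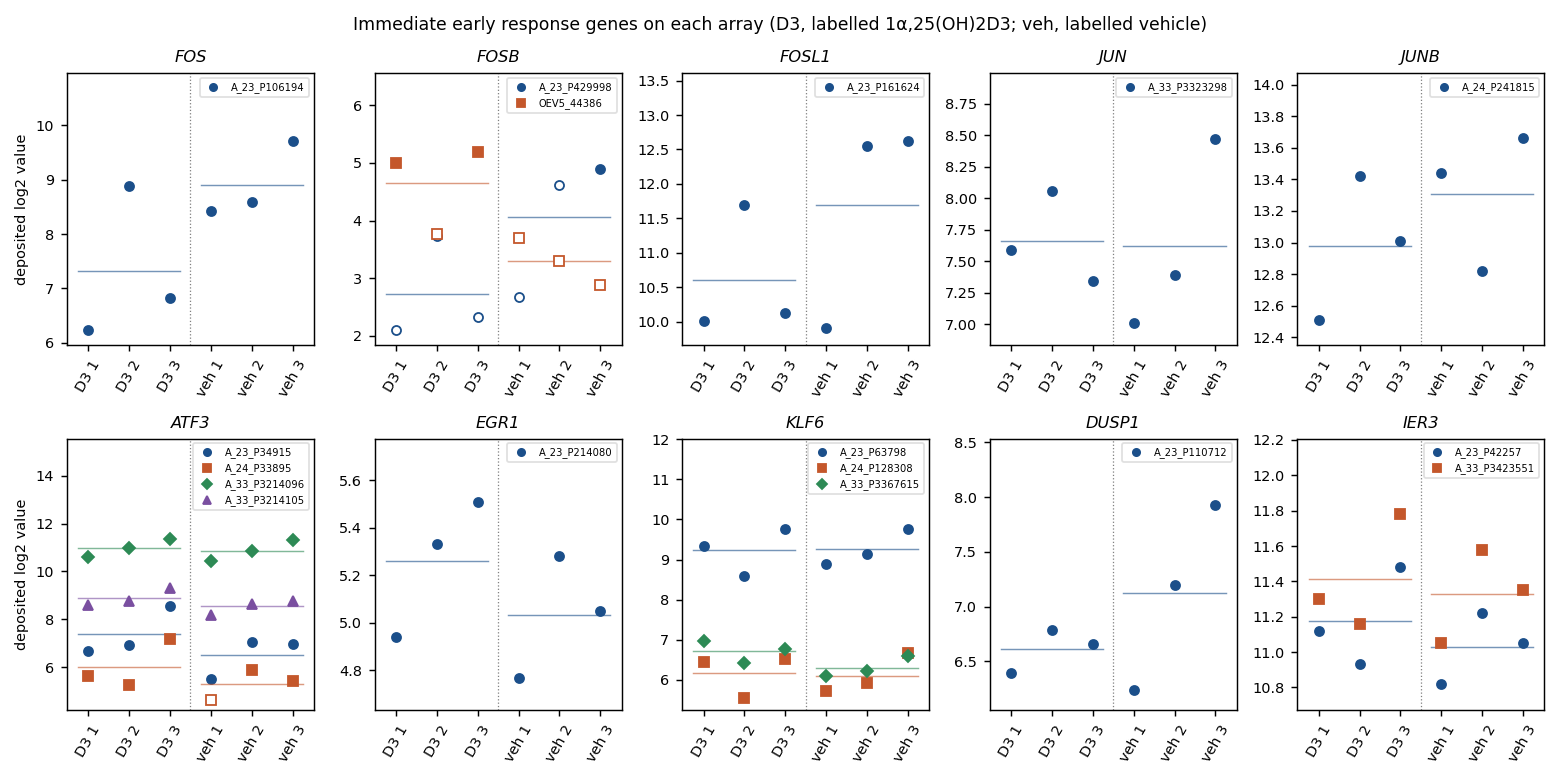
Deposited log2 value (y axis, its own scale in each panel) of every sense probe of the 10 genes on the 3 arrays labelled 1α,25(OH)2D3 (D3) and the 3 labelled vehicle (veh). Filled points were well above background, open points were not, and lines mark the mean of each label. The FOS probe ranged from 6.24 to 9.71, and its array labelled 1α,25(OH)2D3 replicate 2 (8.88) lay among the vehicle arrays.

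Among the FOS family, FOS and FOSL1 had lower means on the 1α,25(OH)2D3-labelled arrays, by 3.01-fold and 2.12-fold. FOS encodes the founding FOS protein, which binds DNA only as a dimer with a JUN protein. Its probe, in the 3′ UTR (exon 4, chr14:75281511-75281570), had values of 6.24, 8.88 and 6.83 on the 1α,25(OH)2D3-labelled arrays and of 8.42, 8.58 and 9.71 on those labelled vehicle. Replicates 1 and 3 of the first label were the lowest arrays, and its replicate 2 was higher than vehicle replicates 1 and 2. The log2 fold change was -1.59 (SE 0.666, n = 3 per label), with an unadjusted p of 0.0457 and a Benjamini-Hochberg adjusted p of 0.701 in limma. The call was lost without 1α,25(OH)2D3 replicate 1 (-1.05), without 1α,25(OH)2D3 replicate 3 (-1.35), without vehicle replicate 2 (-1.75) and without vehicle replicate 3 (-1.19), whereas without 1α,25(OH)2D3 replicate 2 the difference was -2.37 (limma, unadjusted p = 0.000877). It was also lost with the slide as a block (-2.08, SE 1.03), which leaves the single array labelled 1α,25(OH)2D3 replicate 3 against the 3 vehicle arrays of its slide.

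The FOS probe was one of the most variable on the arrays. Its highest and lowest arrays were 3.47 apart on the log2 scale, an 11.1-fold range, and 0.186% of all tested probes had a wider range. FOSL1, which encodes FRA-1, the FOS protein known for its part in epithelial tumor invasion, had a range of 2.73, and 0.755% of probes had a wider one. The median range was 1.15 over the 15 member probes and 0.69 over all tested probes.

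FOSL1 was read by 1 probe in its 3′ UTR (exon 4, chr11:65892627-65892686, minus strand of the gene). It had values of 10.01, 11.69 and 10.13 on the 1α,25(OH)2D3-labelled arrays and of 9.90, 12.55 and 12.63 on those labelled vehicle. The labels overlapped fully, since vehicle replicate 1 was the lowest array of all and lay beside 1α,25(OH)2D3 replicates 1 and 3. The log2 fold change of -1.08 (SE 0.774) had an unadjusted p of 0.201 and an adjusted p of 0.726 in limma. Without vehicle replicate 1 it was -1.98 (limma, unadjusted p = 0.00514), so that this array decided whether FOSL1 passed the threshold on unadjusted p.

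FOSB, whose product can replace FOS in the AP-1 dimer and also exists as a shorter form without the activation domain, was close to background. Probe A_23_P429998, in the 3′ UTR of the full transcript (exon 4, chr19:45474947-45475006), had values of 2.10, 3.73 and 2.33 on the 1α,25(OH)2D3-labelled arrays and of 2.68, 4.61 and 4.89 on those labelled vehicle. It was well above background on vehicle replicate 3 alone, so no fold is given. Probe OEV5_44386, in the last exon of a short coding transcript and in intron 3 of the main one (chr19:45471889-45471948), ran the other way, with 4.99, 3.76 and 5.18 against 3.69, 3.29 and 2.89. It was detected above background with 1α,25(OH)2D3 replicates 1 and 3 and on no vehicle array, so no fold is given. The arrays of the 2 labels did not overlap for this probe, which the filter left untested. The nearest values, 1α,25(OH)2D3 replicate 2 (3.76) and vehicle replicate 1 (3.69), were both not above background. Labels did not overlap in 12.2% of all tested probes. A further probe lay antisense to the last exon of FOSB (chr19:45473527-45473586) and is no member. It had 3.37, 4.42 and 4.86 against 5.24, 5.35 and 5.14 and was detected above background on 1 of the 1α,25(OH)2D3-labelled arrays and on all 3 vehicle arrays. Its labels did not overlap, and no fold is given, since 2 of the lower values were not above background.

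The 2 JUN family members differed in which arrays were low. JUN, a main partner of FOS in the AP-1 dimer, was read in its 3′ UTR (chr1:58780839-58780898, minus strand of the gene), with values of 7.59, 8.06 and 7.34 on the 1α,25(OH)2D3-labelled arrays and of 7.01, 7.39 and 8.47 on those labelled vehicle. Vehicle arrays were both the lowest and the highest, and the log2 fold change was 0.04 (SE 0.38, adjusted p = 0.982 in limma). JUNB, which often restrains JUN, had values of 12.51, 13.42 and 13.01 against 13.44, 12.82 and 13.66 at the coding probe printed above. Its log2 fold change was -0.33 (SE 0.298, adjusted p = 0.774 in limma), with the labels overlapping on 1α,25(OH)2D3 replicates 2 and 3 and vehicle replicate 2. As for FOS, 1α,25(OH)2D3 replicate 1 was the lowest array and vehicle replicate 3 the highest.

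ATF3, a stress-induced bZIP factor that can pair with JUN proteins and repress transcription, was read by 4 probes, all of which had a higher mean on the 1α,25(OH)2D3-labelled arrays, by 1.09-fold to 1.81-fold, without passing the test. Probe A_23_P34915, near the end of the 3′ UTR (exon 4, chr1:212620514-212620573), had values of 6.67, 6.93 and 8.56 against 5.53, 7.07 and 6.99. Probe A_24_P33895, the coding probe of exon 4, had 5.62, 5.26 and 7.18 against 4.65, 5.90 and 5.41, and vehicle replicate 1 was not well above background there. On both, 1α,25(OH)2D3 replicate 3 stood highest and vehicle replicate 1 lowest, and the other 4 arrays were interleaved. Their log2 fold changes were 0.85 (SE 0.58) and 0.69 (SE 0.521), with adjusted p-values of 0.718 and 0.733 in limma. With the slide as a block they were 2.03 (SE 0.621) and 1.85 (SE 0.476), but that fit compares 1 array, 1α,25(OH)2D3 replicate 3, with the 3 vehicle arrays of its slide and has no replicate on that side. Without 1α,25(OH)2D3 replicate 3 they were 0.27 and 0.12, and without vehicle replicate 1 they were 0.35 and 0.36, so that these 2 arrays carried most of the difference.

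The other ATF3 probes varied less. Probe A_33_P3214105, in the coding sequence of exon 2, had 8.61, 8.77 and 9.33 against 8.19, 8.65 and 8.78, a log2 fold change of 0.36 (SE 0.246). Probe A_33_P3214096 lies in the 3′ UTR of a shorter transcript that ends within intron 3 of the main one (chr1:212619177-212619236), and had 10.61, 10.97 and 11.37 against 10.44, 10.86 and 11.31, a log2 fold change of 0.12 (SE 0.279). The adjusted p-values of these 2 probes were 0.718 and 0.918 in limma. The probe for the shorter transcript had a range of 0.94 and the probe near the end of the main transcript one of 3.03, while all 4 probes shared the array with the highest and the array with the lowest value.

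**Figure D2:**
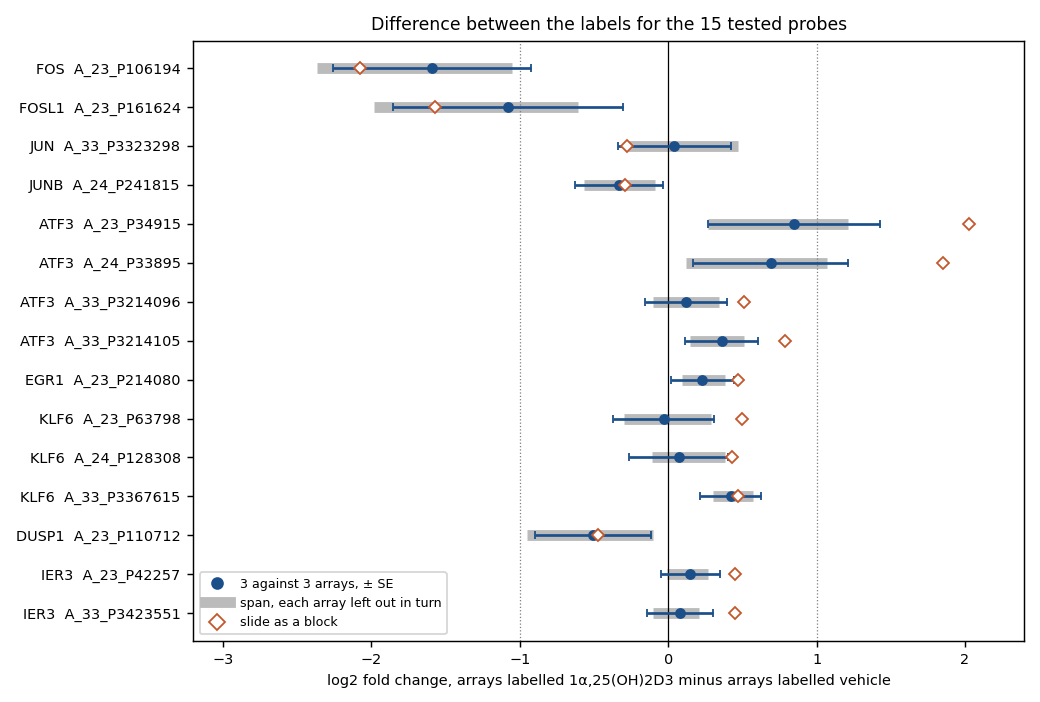
Log2 fold change between the labels (x axis) for the 15 tested probes, with its standard error, the span over the fits that leave out each array in turn (grey), and the value with the slide as a block (open diamonds). Dotted lines mark a fold of 2. FOS lies at -1.59 and FOSL1 at -1.08, and the diamonds of 2 ATF3 probes lie at 2.03 and 1.85, outside the grey span. Diamonds also lie above the grey span for the other ATF3 probes, EGR1, the IER3 probes and the KLF6 probes of a 3′ UTR.

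The zinc finger factors EGR1 and KLF6 differed little between the labels. EGR1, the early growth response factor whose promoter holds the CArG boxes shown above, had values of 4.94, 5.33 and 5.51 on the 1α,25(OH)2D3-labelled arrays and of 4.77, 5.28 and 5.05 on those labelled vehicle, at the end of its 3′ UTR (exon 2, chr5:138469202-138469261). The arrays of the labels were interleaved, with a log2 fold change of 0.23 (SE 0.212, adjusted p = 0.779 in limma) and a range of 0.74, about as narrow as that of the median tested probe. KLF6, a factor of growth control in epithelia, was read in the 3′ UTR of its main transcript (exon 4, chr10:3779195-3779254) with 9.34, 8.60 and 9.77 against 8.90, 9.13 and 9.77. Replicate 3 was the highest array of each label, and the log2 fold change was -0.03 (SE 0.34, adjusted p = 0.985 in limma).

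The other KLF6 probes were matched to transcripts other than the main one, and how much of the KLF6 RNA these make up was not measured. Probe A_24_P128308, in the last exon of a short transcript inside intron 2 of the main one (chr10:3780784-3780843), was spotted 10 times per array, and its spots differed by an SD of 0.10 to 0.20 within an array. It had 6.44, 5.56 and 6.53 against 5.73, 5.92 and 6.66, a range of 1.09 over the arrays, and the log2 fold change was 0.07 (SE 0.333, adjusted p = 0.959 in limma). Probe A_33_P3367615, in the 5′ UTR of an alternative transcript (chr10:3785178-3785237), had 6.96, 6.43 and 6.78 against 6.10, 6.22 and 6.59, a log2 fold change of 0.42 (SE 0.207), with an unadjusted p of 0.0795 and an adjusted p of 0.701 in limma. Its labels overlapped only in that vehicle replicate 3 was above 1α,25(OH)2D3 replicate 2.

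Among the feedback and survival genes, DUSP1 had its 2 highest arrays under vehicle. DUSP1 encodes a nuclear phosphatase that switches off p38, JNK and ERK kinases, and its probe lies in the 3′ UTR (exon 4, chr5:172768293-172768352). The values were 6.39, 6.79 and 6.66 against 6.24, 7.20 and 7.93, so that vehicle arrays were both the lowest and the highest. The log2 fold change was -0.51 (SE 0.391, adjusted p = 0.738 in limma). It was -0.95 without vehicle replicate 1 (unadjusted p = 0.00884 in limma) and -0.10 without vehicle replicate 3. IER3, a regulator of survival and ERK signaling that NF-κB and stress induce, was read by 2 probes in its 3′ UTR (exon 2), where the opposite strand belongs to IER3-AS1 and HCG20. They had 11.12, 10.93 and 11.48 against 10.82, 11.22 and 11.05 (chr6:30743535-30743594), and 11.30, 11.16 and 11.78 against 11.05, 11.58 and 11.35 (chr6:30743799-30743858). On both, 1α,25(OH)2D3 replicate 3 was highest and vehicle replicate 1 lowest, and the log2 fold changes were 0.15 (SE 0.199) and 0.08 (SE 0.222), with adjusted p-values of 0.845 and 0.928 in limma. Another 3 probes read the strand opposite to IER3, 2 of them within the antisense gene IER3-AS1. They were above background on every array, with log2 fold changes of 0.31, 0.19 and 0.11, and they too were highest on 1α,25(OH)2D3 replicate 3 and lowest on vehicle replicate 1.

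The arrays with the extreme values were shared by many members. With the brightest probe of each of the 9 tested genes, vehicle replicate 3 was the highest array in 5 genes (FOS, FOSL1, JUN, JUNB and DUSP1) and 1α,25(OH)2D3 replicate 3 in the other 4 (ATF3, EGR1, IER3 and KLF6, the last level with vehicle replicate 3 at 9.77). Over all tested probes these arrays were the highest in 16.1% and 16.8%. Vehicle replicate 1 was the lowest array in 6 of the 9 genes, beside 16.4% of all tested probes. Heat shock genes respond to handling and temperature, and whether handling had a part was not tested. All 4 that were read were highest on 1α,25(OH)2D3 replicate 2 and lowest on 1α,25(OH)2D3 replicate 3. HSPA1A had 13.42, 14.01 and 12.21 on the 1α,25(OH)2D3-labelled arrays and 13.40, 13.93 and 12.77 on those labelled vehicle. Replicate 3 was the lowest of each label for HSPA1A and HSPA1B. For DNAJB1 (8.39, 8.80 and 8.69) and HSPH1 (8.51, 9.51 and 9.05) vehicle replicate 1 was the lowest vehicle array, the array that was lowest in 6 members. The 4 heat shock probes were above background on all arrays, and their summed level ran from 12.67 to 14.41 on the first label and from 13.23 to 14.32 on the second.

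Set in the order of the CYP24A1 signal, the members fell into no common division. That order comes from a measured signal and is no group of the study, so nothing was averaged or tested over it. JUNB was higher on each of the 3 arrays where the CYP24A1 probe was above background (13.42, 13.44 and 13.66) than on each of the others (12.51, 12.82 and 13.01). The coding ATF3 probe of exon 4 was lower on each of those arrays, with 4.65, 5.26 and 5.41 against 5.62, 5.90 and 7.18, and so was IER3 probe A_23_P42257, with 10.82, 10.93 and 11.05 against 11.12, 11.22 and 11.48. These were 3 of the 15 tested probes, 1 higher and 2 lower, where 6.17% of all tested probes divided in this way (3.29% higher and 2.88% lower). The other probe of IER3 and the other 3 of ATF3 did not divide so. FOS came near it, with its 2 lowest values on arrays with low CYP24A1 and vehicle replicate 2 (8.58) between vehicle replicate 1 (8.42) and 1α,25(OH)2D3 replicate 2 (8.88).

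**Figure D3:**
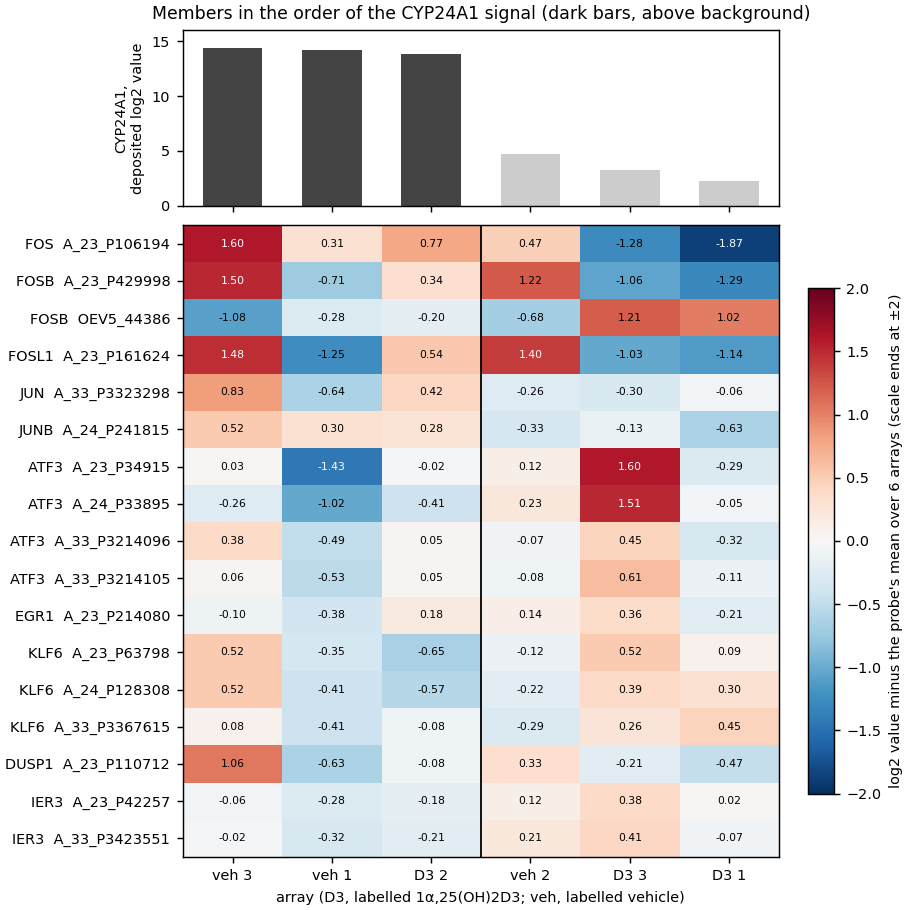
Upper panel, deposited log2 value of the CYP24A1 probe on each array, from highest to lowest. Lower panel, log2 value of each of the 17 sense probes minus its mean over the 6 arrays, in the same order of arrays. JUNB is above its mean on the 3 left arrays and below it on the 3 right ones, FOS falls from 1.60 on vehicle replicate 3 to -1.87 on 1α,25(OH)2D3 replicate 1, and the other rows show no common order.

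Genes whose values ran most like those of FOS were sought among 17710 named probes above background on all arrays, by the root mean square difference of values centered on each probe's mean over the 6 arrays. The closest were CYP4F12 (0.24), CYP4F11 (0.30), DKK1 (0.40), ID3 (0.44) and CYP4F2 (0.46). CYP4F12 had 7.10, 9.22 and 7.37 on the 1α,25(OH)2D3-labelled arrays and 8.99, 9.10 and 9.77 on those labelled vehicle, with the same arrays low as for FOS. The 3 CYP4F genes are paralogs, and whether their probes share signal was not tested. For EGR1 the closest were H3C10 (0.08), POU2AF1 (0.09), ARHGAP30 (0.10), H3C7 (0.11) and CLEC18B (0.11), at a much smaller range of values. With 6 arrays, these are descriptions of likeness and nothing more.

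Related genes were followed through 5 lists of 105 genes, read with 1 probe a gene, of which 93 were tested. No gene of any list was called by the fold threshold with an unadjusted p under 0.05, beside 0.745% of all tested probes, or by an adjusted p in limma. At an unadjusted p under 0.05 there were 3 genes, 3.23% of those tested beside 6.77% of all probes, and all 3 were higher on the 1α,25(OH)2D3-labelled arrays. DUSP6, the phosphatase that ERK signaling induces to switch ERK off, had 7.20, 7.48 and 7.60 against 6.45, 6.36 and 6.60. Every array of the first label was above every vehicle array, and the log2 fold change was 0.96 (SE 0.169), with an unadjusted p of 0.000576 and an adjusted p of 0.701 in limma. BTG2, an antiproliferative gene, had 10.05, 9.33 and 9.53 against 9.20, 8.77 and 8.71 (log2 fold change 0.74, SE 0.235, unadjusted p = 0.0146 in limma), again without overlap, and 0.63 with the slide as a block (unadjusted p = 0.12 in limma). PHLDA1 had 9.19, 8.41 and 9.07 against 8.10, 8.57 and 8.08 (log2 fold change 0.64, SE 0.251, unadjusted p = 0.0355 in limma), with vehicle replicate 2 above 1α,25(OH)2D3 replicate 2. For PHLDA1 the unadjusted p in limma was above 0.05 with the replicate number as a block (0.0664) and without a background filter (0.0529). It was also above 0.05 in limma without 1α,25(OH)2D3 replicates 1 (0.122) or 3 (0.106) or vehicle replicates 1 (0.0913) or 3 (0.101). With the slide as a block the PHLDA1 log2 fold change was 0.82.

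By list, the other AP-1 and related bZIP genes (13 of 14 tested) had a median log2 fold change of 0.01, with 7 above 0 and 6 below, from CREB5 at 0.51 and BATF2 at 0.38 to BATF3 at -0.34 and MAFF at -0.44. Other early-response transcription factors (12 of 19 tested) were all below 0, with a median of -0.19 and none past the test. ID3, an inhibitor of bHLH factors, had 7.65, 10.80 and 7.76 against 10.60, 9.67 and 11.10, a log2 fold change of -1.72 (SE 0.821, unadjusted p = 0.0714 in limma), and divided the arrays as CYP24A1 did, being higher where CYP24A1 was. Without 1α,25(OH)2D3 replicate 2 the ID3 value was -2.75 (unadjusted p = 0.000307 in limma), and without 1α,25(OH)2D3 replicate 1 it was -1.18. EGR2, a close relative of EGR1, had 6.49, 7.83 and 8.56 against 8.80, 8.35 and 8.58, a log2 fold change of -0.95 (SE 0.471, adjusted p = 0.701 in limma), with 1α,25(OH)2D3 replicates 1 and 2, the arrays of the other slide, lowest. With the slide as a block the EGR2 value was -0.02, without 1α,25(OH)2D3 replicate 1 it was -0.38, and without 1α,25(OH)2D3 replicate 3 it was -1.42 (unadjusted p = 0.0132 in limma). The smallest differences of that list were those of KLF4 (-0.02) and NAB2 (-0.11).

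Feedback inhibitors of MAPK signaling and mRNA decay (all 21 tested) had a median of 0.08, with 11 above 0 and 10 below, and beside DUSP6 the extremes were DUSP16 at 0.45, TNFAIP3 at -0.48 and DUSP4 at -0.56. Other induced effectors (22 of 26 tested) had the lowest median, -0.33, with 6 above 0 and 16 below. GEM, a small GTPase, had 6.98, 9.90 and 6.57 against 10.01, 7.60 and 9.90, a log2 fold change of -1.35 (SE 0.96, adjusted p = 0.726 in limma). GEM was higher on every array where the 3′ UTR probe of CYP24A1 was above background. Without 1α,25(OH)2D3 replicate 2 the GEM value was -2.39 (unadjusted p = 0.0127 in limma), and without 1α,25(OH)2D3 replicate 3 it was -0.73. SGK1, a kinase of ion transport and survival, had a log2 fold change of -0.95 (SE 0.648). Upstream kinases and SRF partners (all 25 tested) had a median of 0.03, from MRTFB at 0.38 to MAPK3 at -0.34 and MAPK7 at -0.49. In all, 9 of the 93 tested list genes (9.68%) divided the arrays as CYP24A1 did, beside 6.17% of all tested probes: IER5, ID1, ID2, ID3, DUSP10, SPRED3 and GEM higher, and NAB1 and PHLDA1 lower.

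**Figure D4:**
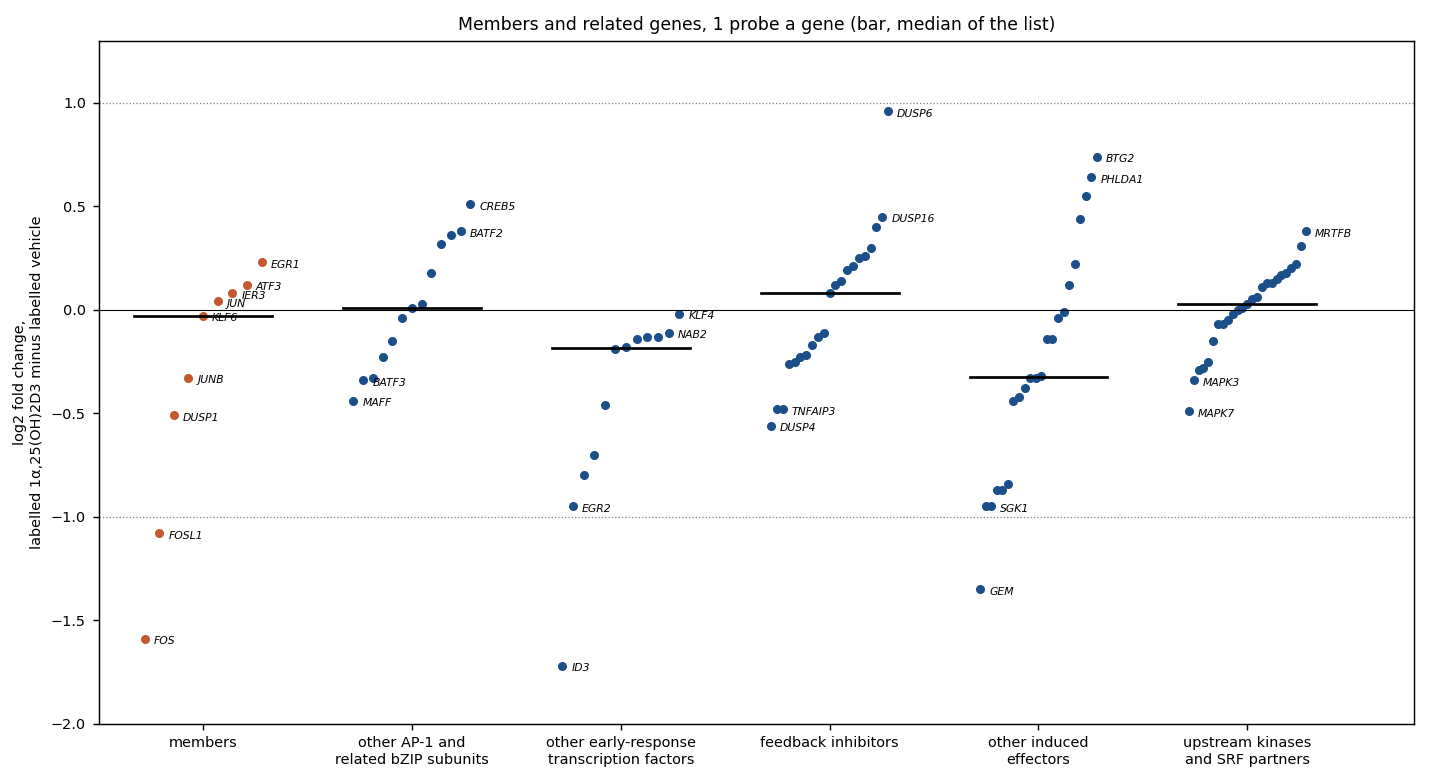
Log2 fold change between the labels (y axis) of the 9 tested members (orange) and of the tested genes of the 5 related lists (blue), 1 probe a gene, with the median of each list as a bar and dotted lines at a fold of 2. FOS, FOSL1, ID3 and GEM lie below -1, and DUSP6 at 0.96 is the highest gene.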

How the data were processed

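The 6 arrays were grouped by their labels. Per the labels, the authors scanned them with Agilent Feature Extraction 10.7.1.1 and deposited spot intensity with detection flags and a table of log2 values, 1 per probe and array. Its sorted columns differ by at most 0.000913, so it was quantile normalized, and its rank correlation with the scanner intensity was at least 0.99982. The table held only these 6 samples (0 columns of others). The gene name column held the probe's own name throughout, so the 60-base probes were matched without mismatch to GENCODE release 44 on hg38, and 72.1% matched in sense. A list gene was read by its brightest probe matched to coding transcripts of 1 gene. Probes that the scanner flagged well above background on all 3 arrays with a label were fitted on the log2 values with limma 3.58.1 in R 4.3.3 without a covariate, and p-values were adjusted by Benjamini-Hochberg over all 63337. The fit was checked on simulated data. Alternatives were scanner signals scaled to the 75th percentile, normexp with an offset of 50 followed by quantile normalization, other background filters, a block for the replicate number or for the slide, an unpaired Student's test on each probe (which the paper names for its experiments, not for the arrays), adjustment over named probes, the mean of a gene's probes, and each array left out. Array depth is not counted, and the 6 arrays limit the precision. Named genes were the members, CYP24A1, the 2 highest and 2 lowest genes of each list and any called gene, of which 1 gene is not reported here. The members and lists were chosen with earlier results of these data known. Those that divided like CYP24A1, and the antisense probes, were named after their values were seen. Labels name the mirVana kit for RNA extraction and the paper TRIzol.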

Additional observations from a re-analysis of the deposited data

How the results depend on the processing

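No member was past an adjusted p of 0.05 in any of the alternatives run (limma or an unpaired Student's test on each probe). Of 182 recomputed member values 18 changed sign, in 6 of the 15 tested probes, all of them with log2 fold changes between -0.03 and 0.15. With normexp background correction JUN was -0.06, 0 member probes and 33 of all probes were called by fold and unadjusted p, and with an unpaired Student's test on each probe 0 and 139. Without a background filter 1612 of all probes were called and with a filter on all 6 arrays 157, and without the filter FOS was not called (unadjusted p = 0.0843 in limma) and the 1 member probe called was FOSB OEV5_44386, which no vehicle array detected. With the slide as a block, where 1 array stands for the 1α,25(OH)2D3 label, 808 of all probes and 2 member probes, both of ATF3, were called, JUN was -0.28 and KLF6 0.50 at A_23_P63798, MAFF was 0.38, KLF4 0.47 and TNFAIP3 0.23, and 1 feedback inhibitor (DUSP6) and 2 effectors were called. The mean of the 3 KLF6 probes was 0.15. The cause was not tested.

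Leaving out each array in turn, between 0 and 2 member probes were called, with 0 without 1α,25(OH)2D3 replicates 1 or 3 or vehicle replicates 2 or 3, and 2 (FOS and FOSL1) without vehicle replicate 1. Of all probes 296 (without 1α,25(OH)2D3 replicate 1) to 1181 (without 1α,25(OH)2D3 replicate 3) were called by fold and unadjusted p, 1109 without vehicle replicate 1, and 0 to 4 by adjusted p, the 4 without vehicle replicate 1. JUN ranged from -0.27 to 0.47, ATF3 A_33_P3214096 from -0.10 to 0.34, IER3 from -0.01 to 0.27 and from -0.10 to 0.21, and KLF6 from -0.30 to 0.29 at A_23_P63798 and from -0.11 to 0.38 at A_24_P128308. BATF3 ranged from -0.72 to 0.06, NAB2 from -0.27 to 0.10 and KLF4 from -0.34 to 0.20. The median of the member probes ranged from -0.10 (without vehicle replicate 1) to 0.23 (without vehicle replicate 3). It was also below 0 without 1α,25(OH)2D3 replicate 3 (-0.08). Between 0 and 1 of the other AP-1 genes, 0 and 3 of the early-response factors (3 without 1α,25(OH)2D3 replicate 2), 0 and 1 of the feedback inhibitors, and 0 and 3 of the effectors (3 without vehicle replicate 1) were called.

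With the replicate number as a block (replicate block), FOS stayed at -1.59 with an unadjusted p of 0.0368 in limma, 1 member probe and 582 of all probes were called, and 0 by adjusted p. Deviations from the label means correlated at 0.12, 0.09 and -0.03 between same-numbered arrays, so the numbers were not taken to pair the samples.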
